A study of Drosophila melanogaster with 4 samples.

Results

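Genes of blood cell receptors and blood cell markers were followed in larval salivary glands of Drosophila melanogaster: the phagocytic receptor genes nimC1, nimC2, eater, crq and Sr-CI, the haemocyte marker genes Hml, He, Pxn and PO45, and srp, which encodes a GATA transcription factor. They were taken by name from the deposited count table, which holds all 10 of them among 9931 genes. RNA-seq was carried out on total RNA of glands from larvae of the third instar kept at 25 °C. The 2 genotypes were the JIL-1 null mutant Z2, labelled JIL-1-/-, and wild type, with 2 libraries each. JIL-1 is a chromosomal kinase that phosphorylates histone H3. The labels name neither the wild-type strain nor the animals behind a library. The p-values therefore describe the spread between libraries, which may be technical, and a difference of strain cannot be told apart from one of genotype.

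Insect haemocytes circulate in the body cavity or settle on tissues, and most of those in a fly larva are plasmatocytes, which engulf microbes and dying cells. NimC1 and Eater bind bacteria through rows of NIM repeats, a cysteine-rich relative of the EGF repeat. Croquemort (crq) belongs to the CD36 family of class B scavenger receptors, and Sr-CI is a class C scavenger receptor. Crystal cells, another haemocyte type, store prophenoloxidase for melanin formation. Serpent (srp) acts in both blood cells and fat body, so its RNA does not mark blood cells alone.

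The libraries held 8071769 and 11369094 counts in JIL-1 null and 6222322 and 8496047 in wild type. One count corresponded to between 0.0844 and 0.156 CPM, the level used below, which is the count over a library size scaled with TMM factors. JIL-1 itself had 449 and 660 counts in JIL-1 null and 597 and 608 in wild type, or 55.4 and 55.7 CPM against 93.4 and 76.9 CPM. The change was -0.61 ± 0.12 on the log2 scale (JIL-1 null over wild type ± standard error, as throughout), and the edgeR adjusted p was 0.0147. Adjusted p values come from edgeR (quasi-likelihood test, Benjamini-Hochberg over all tested genes) unless another tool is named. This call was lost when JIL-1 null library 1 (adjusted p = 0.108) or JIL-1 null library 2 (0.121) was left out. Where in the JIL-1 gene the reads of the mutant lay cannot be read from the count table. Gland markers were present in both genotypes, with summed levels of 317200 and 297600 CPM in JIL-1 null and 287300 and 340900 CPM in wild type over 12 genes, a sum carried by the glue protein genes. Of these 12, Sgs1 (-1.25 ± 0.14) and sage (-0.54 ± 0.14) fell and PH4alphaSG1 (4.14 ± 0.14) and PH4alphaSG2 (1.53 ± 0.12) rose. The share called is near the 30.7% of all tested genes. Without JIL-1 null library 1 or library 2 both falls were lost, and more of the 12 were called when a wild-type library was left out.

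The 10 genes formed 2 classes of abundance. The receptor genes nimC2 and crq and the factor gene srp were abundant, at between 16.5 and 477 CPM in every library. The other 7, nimC1, eater, Sr-CI, Hml, He, Pxn and PO45, lay between 0 and 5.47 CPM. In bulk RNA, fewer cells of a type and less RNA per cell cannot be told apart. All 10 were lower in JIL-1 null with no overlap between genotypes, as were 31.1% of all genes in the table. Among tested genes 33.1% were lower and 37.2% higher without overlap, and among genes with too few counts to test 23.3% were lower without overlap. With upper quartile scaling PO45 overlapped, with 1.77 CPM in the higher JIL-1 null library and 1.67 CPM in the lower wild-type library, which left 9 of 10 against 24.5% of all genes. Of the 6 genes with enough counts to be tested, 4 fell (nimC2, srp, Hml and crq), 0 rose, and Pxn and PO45 did not pass, by edgeR. At an unadjusted p under 0.05 these numbers were the same, and DESeq2 called 3 of them lower and 0 higher. Over all 7958 genes tested, 30.7% were called, with 17.2% lower and 13.5% higher. Hml entered the test only through its wild-type counts, so its fall is not independent of the filter.

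**Figure D1:**
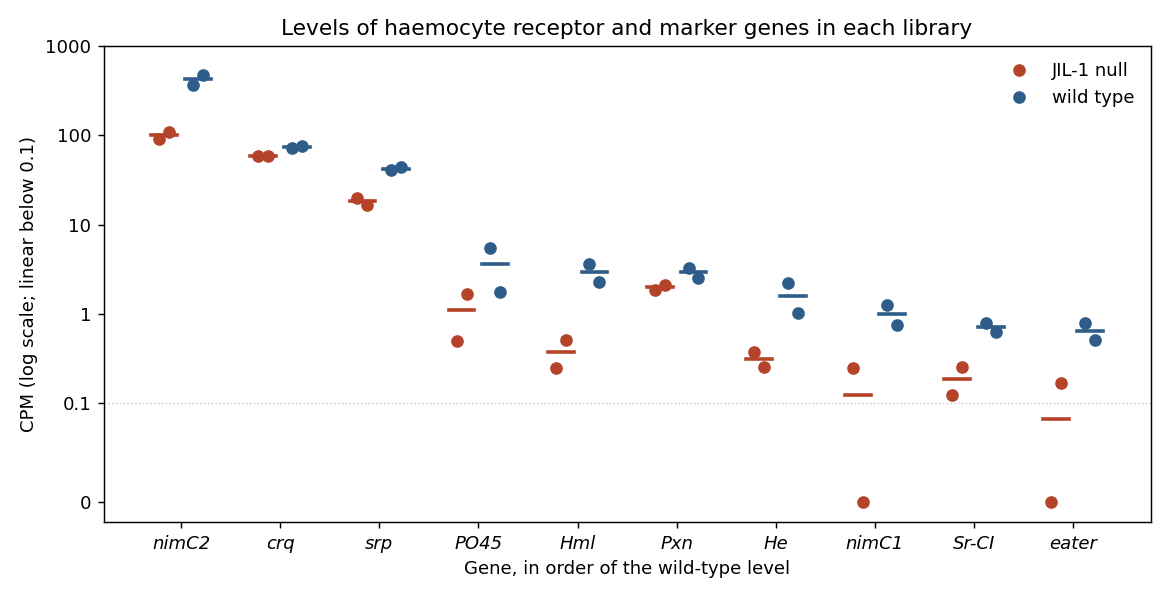
CPM of each of the 10 genes (vertical axis, logarithmic above 0.1 and linear below) in the 2 JIL-1 null libraries (left of each pair) and the 2 wild-type libraries (right), with a bar at the mean of each genotype. The genes nimC2, crq and srp stand above 16 CPM in every library, and the other 7 stay at or below 5.47 CPM.

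Of the Nimrod receptor genes, nimC2 carried most of the signal. It encodes a receptor of the NIM-repeat family that is less studied than NimC1. The gene (FBgn0028939, arm 2L) had 733 and 1292 counts in JIL-1 null and 2340 and 3773 in wild type. These counts correspond to 90.5 and 109 CPM in JIL-1 null and to 366 and 477 CPM in wild type. Both JIL-1 null libraries stood far below both wild-type libraries. The mean was 99.8 ± 13.1 CPM in JIL-1 null and 421 ± 78.5 CPM in wild type (SD, n = 2 each), a log2 fold change of -2.08 ± 0.17 or 4.22-fold lower in JIL-1 null (edgeR adjusted p = 0.000773). The gene passed the test under all 10 alternatives, with adjusted p from 8.42e-29 by DESeq2 to 0.0157 without JIL-1 null library 2. Of all counts on the 10 genes, nimC2 held 52.7% and 57.8% in the JIL-1 null libraries and 73.7% and 78.8% in the wild-type libraries. Its exons overlap those of rk, the bursicon receptor gene, on the opposite strand, over 527 bases or 18.7% of the nimC2 exons. No source used here says whether counting used strand, so reads of that stretch cannot be assigned to one of the pair, and rk itself had 82 and 105 counts in JIL-1 null and 165 and 269 in wild type.

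The receptor genes best known from plasmatocytes were near the limit of detection. For nimC1 (FBgn0259896, arm 2L) there were 2 and 0 counts in JIL-1 null and 8 and 6 in wild type. The ratio of pooled counts was 0.102, with an exact (Clopper-Pearson) 95% counting interval from 0.0113 to 0.446. The gene eater (FBgn0243514, arm 3R) had 0 and 2 counts in JIL-1 null and 5 and 4 in wild type, a ratio of 0.159 with an interval from 0.0168 to 0.770. Both genes were thus read in both wild-type libraries and in one JIL-1 null library each. For Sr-CI (FBgn0014033, arm 2L) the counts were 1 and 3 in JIL-1 null and 5 and 5 in wild type, a ratio of 0.287 (0.0657 to 0.995). These intervals cover counting error only and not the spread between libraries. Leaving out JIL-1 null library 2 gave a ratio of 0.252 for nimC1 and 0.177 for Sr-CI. Leaving out JIL-1 null library 1 gave 0.268 for eater and 0.362 for Sr-CI. Fitted without a filter, none of the 3 passed the test, with adjusted p = 0.104 for nimC1, 0.162 for eater and 0.191 for Sr-CI by edgeR.

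The CD36-family receptor gene crq had the smallest change of the 6 genes tested. Its counts (FBgn0015924, arm 2L) were 469 and 690 in JIL-1 null and 465 and 593 in wild type, or 57.9 and 58.3 CPM against 72.7 and 75.0 CPM. The libraries of a genotype lay close together, and the genotypes did not overlap. The log2 fold change was -0.35 ± 0.09 (edgeR adjusted p = 0.0368). The call was lost in 7 of 10 alternatives, among them DESeq2 (adjusted p = 0.0900), upper quartile scaling (0.132), the fit with a replicate block (0.0704), and the fits without JIL-1 null library 1 (0.223), JIL-1 null library 2 (0.202) or wild type library 2 (0.0749). The direction was the same in all 10. Exons of crq share 448 bases with ex, the gene expanded of the Hippo growth pathway, on the opposite strand. That gene did not pass the test (log2 fold change 0.00 ± 0.17).

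The GATA factor gene srp (FBgn0003507, arm 3R) had 161 and 196 counts in JIL-1 null and 259 and 349 in wild type. Its level was 19.9 and 16.5 CPM in JIL-1 null and 40.5 and 44.1 CPM in wild type. Both JIL-1 null libraries were below both wild-type libraries. The means were 18.2 ± 2.36 CPM in JIL-1 null and 42.3 ± 2.55 CPM in wild type (SD, n = 2 each), with a log2 fold change of -1.22 ± 0.13 (edgeR adjusted p = 0.00198). It was called under all 10 alternatives (adjusted p from 7.24e-07 to 0.0376). A long non-coding RNA gene on the same strand covers 16.1% of the srp exons, and its reads cannot be told apart from those of srp there. Of the other GATA genes, GATAd had a log2 fold change of -0.18 ± 0.15 and did not pass the test (adjusted p = 0.384), and pnr, grn and GATAe were too low to test.

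Among the haemocyte markers, Hml encodes Hemolectin, a large clotting protein of plasmatocytes. The gene (FBgn0029167, arm 3L) had 2 and 6 counts in JIL-1 null and 23 and 18 in wild type, or 0.247 and 0.507 CPM against 3.60 and 2.28 CPM. The JIL-1 null libraries stood apart from the wild-type libraries. The log2 fold change was -2.84 ± 0.59 (edgeR adjusted p = 0.0160). The call was lost without JIL-1 null library 1 (adjusted p = 0.111), JIL-1 null library 2 (0.0919) or wild type library 1 (0.0585). He (FBgn0028430, arm 2L) encodes Hemese, a glycoprotein of the haemocyte surface, and had 3 and 3 counts in JIL-1 null and 14 and 8 in wild type. Its ratio of pooled counts was 0.196 (exact 95% counting interval 0.0649 to 0.497), or 0.297 with wild type library 1 left out, and it missed the threshold when fitted without a filter (adjusted p = 0.0626). The exons of He share 78 bases with nimB5 on the opposite strand, which is 11.6% of the He exons.

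Pxn and PO45 did not pass the test. Pxn encodes Peroxidasin, an enzyme of the extracellular matrix that crosslinks collagen IV. Its counts (FBgn0011828, arm 3L) were 15 and 25 in JIL-1 null and 21 and 20 in wild type, which is 1.85 and 2.11 CPM against 3.28 and 2.53 CPM. The log2 fold change was -0.53 ± 0.36 (edgeR adjusted p = 0.300). On the opposite strand 82 bases of its exons are shared with CG16986, which rose by 1.47 ± 0.18 (adjusted p = 0.00281, or 0.0539 if JIL-1 null library 2 was left out). PO45 (FBgn0033367, arm 2R), the older name of the prophenoloxidase gene PPO2 of crystal cells, had 4 and 20 counts in JIL-1 null and 35 and 14 in wild type. The libraries of each genotype lay far apart, at 0.494 and 1.69 CPM in JIL-1 null and 5.47 and 1.77 CPM in wild type. Its log2 fold change of -1.62 ± 0.74 (edgeR adjusted p = 0.145) became -0.63 when wild type library 1 was left out and -2.84 when JIL-1 null library 2 was.

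**Figure D2:**
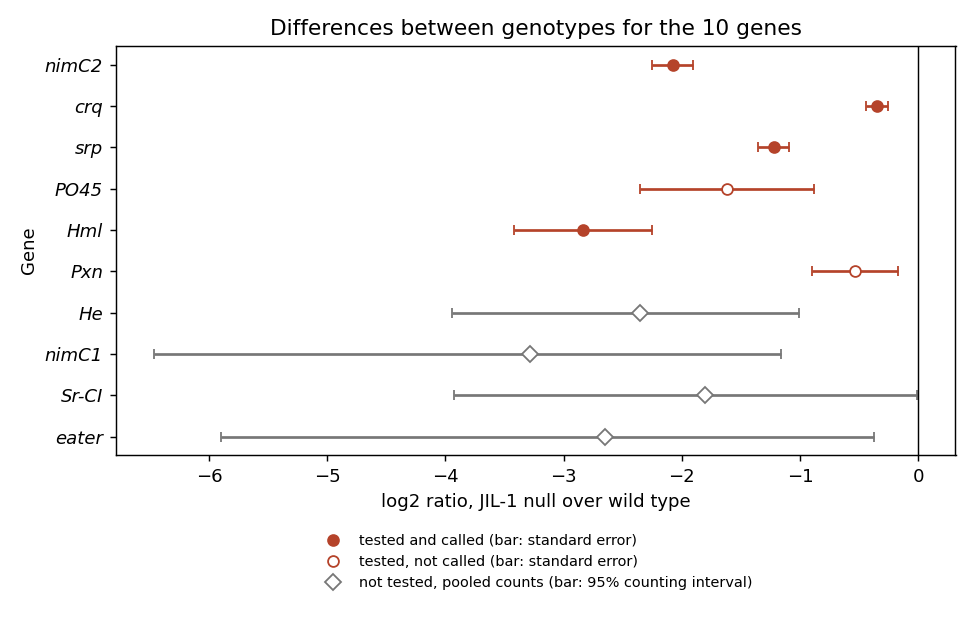
Log2 ratio of JIL-1 null over wild type (horizontal axis) for the 10 genes, ordered by wild-type level. Circles are fitted log2 fold changes with standard errors (filled where the adjusted p is under 0.05), and diamonds are ratios of pooled counts with 95% counting intervals for the 4 genes not tested. The values for nimC2 and srp, -2.08 and -1.22, have narrow errors, and the intervals of the 4 genes not tested are wide.

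The scarce genes also differed between libraries of the same genotype. All 7 were higher in wild type library 1 than in wild type library 2, with summed counts of 111 and 75 or 17.4 and 9.48 CPM. The 3 abundant genes had the opposite order, with 479 CPM in wild type library 1 and 596 CPM in library 2. In JIL-1 null the 7 scarce genes summed to 27 and 59 counts, or 3.33 and 4.98 CPM. The higher JIL-1 null library was thus below the lower wild-type library, at 4.98 CPM against 9.48 CPM.

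Levels of different genes were compared per length. The authors' deposited RPKM of nimC2 was 21.2 in JIL-1 null and 84.8 in wild type, of crq 5.13 in JIL-1 null and 6.23 in wild type, and of srp 1.13 in JIL-1 null and 2.50 in wild type. The deposited RPKM of Pxn, 0.0866 in JIL-1 null and 0.122 in wild type, was the lowest of the 10 in wild type. The length behind these values was checked against the Ensembl annotation. It was implied from counts pooled over the 2 libraries of a genotype, so it and the shares below are approximate. For eater it came to 3878 bases in JIL-1 null and 3187 in wild type. For PO45 it came to 2507 bases in JIL-1 null and 2099 in wild type. For 4149 genes with more than 200 wild-type counts, the length implied by counts and RPKM lay within 0.1 on the log2 scale of the exons summed over all transcripts for 62.1%, of the non-redundant exons for 31.5% and of the gene span for 12.2%. For crq the implied length was 11626 bases in JIL-1 null and 11540 in wild type, against 11531 summed over 5 transcripts and 2848 without redundancy. For Pxn it was 23761 bases in JIL-1 null and 22816 in wild type, against 22818 summed over 5 transcripts and 5955 without redundancy. The implied length of Pxn differed more between the genotypes than from the summed length in wild type, so the match holds only to within that gap. For Hml the implied length was 25061 bases in JIL-1 null and 22658 in wild type, nearer to 23509 summed than to 11756 without redundancy. Some other genes of the 10 did not match the summed length. For nimC2 the implied length in wild type was 4896 bases, between 2819 without redundancy and 7664 summed. For srp it was 16491 in wild type, between 5831 and 26198. For Sr-CI (1995 bases) and He (634 bases) it was near the non-redundant length (2202 and 673) rather than the summed length (4257 and 1226). Deposited RPKM were thus not on one length scale across the 10 genes in this annotation.

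Per kilobase of non-redundant exon, the order of the 10 genes changed in its lower part. The gene nimC2 led with 35.4 ± 4.66 CPM per kilobase in JIL-1 null and 149.5 ± 27.8 in wild type (SD, n = 2 each). It was followed by crq, with 20.4 ± 0.0836 in JIL-1 null and 25.9 ± 0.556 in wild type, and by srp, with 3.12 ± 0.404 in JIL-1 null and 7.26 ± 0.438 in wild type. In wild type He (2.38 ± 1.24) and PO45 (1.59 ± 1.15) came next and overlapped each other, and Pxn was sixth at 0.488 ± 0.0898. Below it Sr-CI (0.321 ± 0.0481), nimC1 (0.305 ± 0.106), Hml (0.250 ± 0.0795) and eater (0.195 ± 0.0592) overlapped from each to the next. In JIL-1 null PO45 and He overlapped as well, at 0.479 ± 0.371 and 0.463 ± 0.123, and the 4 lowest genes were again Sr-CI, nimC1, Hml and eater. The JIL-1 null libraries had 32.1 and 38.7 CPM per kilobase for nimC2 and 20.3 and 20.5 for crq. The wild-type libraries had 129.8 and 169 for nimC2 and 25.5 and 26.3 for crq.

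Several of the genes lie side by side. From NimA to NimC4 on chromosome arm 2L the annotation has 17 protein-coding genes, of which 13 were in the count table. These 13 include nimB1 to nimB5, He, nimC1, nimC2 and nimC3. Of the 11 tested, 8 fell and 1 rose, beside 30.7% called among all genes. CG18095, 1 of the 8 that fell, and nimC3, which did not pass, entered the test only through their wild-type counts. The secreted Nimrod genes nimB2 and nimB3 fell, with 87.6 and 81.0 CPM in JIL-1 null against 132 and 150 CPM in wild type for nimB2. For nimB3 the levels were 12.3 and 13.3 CPM in JIL-1 null and 33.5 and 43.9 CPM in wild type, a log2 fold change of -1.59 ± 0.17 (edgeR adjusted p = 0.00183). The adjacent nimB4 and nimB5 had log2 fold changes of -0.78 ± 0.18 and -0.76 ± 0.21 (adjusted p = 0.0230 and 0.0427), and nimB1 of 0.43 ± 0.35 (adjusted p = 0.385).

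Between nimC1 and nimC2 lies Cyp28a5, a cytochrome P450 gene, at -0.53 ± 0.15 (edgeR adjusted p = 0.0395). On the far side of nimC2, rk fell by 1.66 on the log2 scale (adjusted p = 0.00233). Next in the table was bgm, an acyl-CoA synthetase gene, which rose by 1.27 ± 0.31 (adjusted p = 0.0282). The Nimrod gene nimC3 had 2 and 6 counts in JIL-1 null and 8 and 16 in wild type and did not pass the test (log2 fold change -2.03 ± 0.67, adjusted p = 0.0648). Of the cluster genes, nimB3, nimC2 and rk were called under all 10 alternatives. The calls of nimB4, nimB5, Cyp28a5, bgm and CG18095 were each lost if JIL-1 null library 2 was left out (adjusted p = 0.137, 0.256, 0.268, 0.187 and 0.246, in this order) and if wild type library 2 was (0.0794, 0.158, 0.0911, 0.0828 and 0.128). Those of nimB4, nimB5 and Cyp28a5 were also lost without JIL-1 null library 1 (0.127, 0.103 and 0.119), as was CG18095 (0.0854, and 0.0840 if wild type library 1 was left out). The call of nimB2 needed JIL-1 null library 2 (0.0721 if left out).

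**Figure D3:**
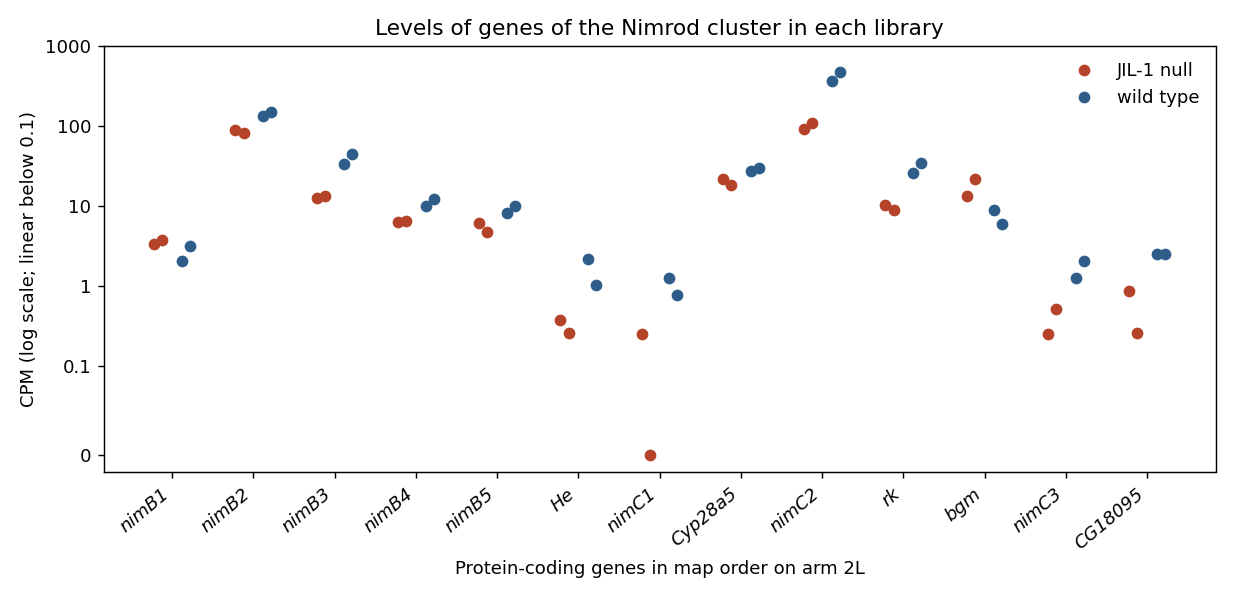
CPM in each library (vertical axis, logarithmic above 0.1 and linear below) of the 13 protein-coding genes of the Nimrod cluster that were in the table, in map order on arm 2L, with JIL-1 null left and wild type right in each pair. JIL-1 null lies below wild type for nimB2 to nimB5, He, nimC1, Cyp28a5, nimC2, rk, nimC3 and CG18095, and above it for nimB1 and bgm.

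Over the whole Nimrod family, 10 of 12 listed genes were in the table and 8 were tested. Of these, 5 fell and 1 rose, where 17.2% of all tested genes were called lower and 13.5% higher. The median log2 fold change was -0.77, against 0.03 for all tested genes. The gene that rose was drpr, which encodes Draper, an engulfment receptor for dying cells. It had 86.4 ± 14.7 CPM in JIL-1 null and 58.3 ± 2.02 CPM in wild type (SD, n = 2 each; log2 fold change 0.57 ± 0.14, edgeR adjusted p = 0.0285). Its call was lost without JIL-1 null library 1 (adjusted p = 0.164), JIL-1 null library 2 (0.0561) or wild type library 2 (0.0712). Called lower under all 10 alternatives were nimC2 and nimB3, and without single libraries the number of falls lay between 2 (without JIL-1 null library 2) and 5. Without JIL-1 null library 1 or wild type library 2 there were 3 falls.

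The scavenger receptor genes that were called all fell. Of 18 listed, 12 were in the table and 9 were tested, of which 7 fell and 0 rose by edgeR (also 7 and 0 at an unadjusted p under 0.05, and 6 and 0 by DESeq2), with a median log2 fold change of -1.26. Over all tested genes 17.2% were called lower and 13.5% higher. Those with the smallest adjusted p were the uncharacterised CD36-family genes CG3829 and CG2736. CG3829 had 27.2 ± 2.05 CPM in JIL-1 null and 84.9 ± 11.5 CPM in wild type, and CG2736 had 67.4 ± 6.43 CPM in JIL-1 null and 161 ± 16.9 CPM in wild type (SD, n = 2 each). Their log2 fold changes were -1.65 ± 0.13 and -1.26 ± 0.13 (edgeR adjusted p = 0.000751 and 0.00150). With pes, emp and santa-maria, they made 5 genes called lower under all 10 alternatives. Among the CD36-family genes that fell, crq had the smallest change.

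Genes of the engulfment machinery, a list that includes the receptor gene drpr, were called in both directions, and drpr was the only one that rose. Of 13 engulfment genes tested, 3 fell and 1 rose, a share of calls near the 30.7% of all genes, and the median log2 fold change was -0.16. The gene ced-6, which encodes an adaptor that binds Draper, fell to 39.5 ± 2.27 CPM in JIL-1 null, against 126 ± 7.61 CPM in wild type (log2 fold change -1.67 ± 0.11, edgeR adjusted p = 0.000447). WASp, an activator of actin branching, fell by 0.95 on the log2 scale (adjusted p = 0.00982), a call lost without JIL-1 null library 1 (0.0789) or library 2 (0.0717). The other gene that fell was Rac2, also lost without JIL-1 null library 1 (0.0650) or library 2 (0.131), and the gene that rose was drpr. Without JIL-1 null library 1 or library 2, ced-6 was the only engulfment gene called in these edgeR fits. Of the 5 genes of the thioester protein family, of which some members coat microbes, 0 were called, with log2 fold changes of -0.29 ± 0.26 for TepII and 0.19 ± 0.14 for Mcr. At an unadjusted p under 0.05 the count by edgeR was also 0, as it was by DESeq2 and limma-voom. Without wild type library 1 both passed (adjusted p = 0.0490 and 0.0442), as did TepI without wild type library 2 (0.0157).

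Around PO45, 11 genes of melanisation were listed, of which 10 were tested, and by edgeR 7 fell and 0 rose (also 7 and 0 at an unadjusted p under 0.05, and 6 and 0 by DESeq2), with a median log2 fold change of -1.63. Over all tested genes 17.2% were called lower and 13.5% higher. Of the 7 that fell, proPO-A1 and Ddc entered the test through wild type alone. The serine protease gene Sp7 fell to 10.5 ± 0.894 CPM in JIL-1 null, against 69.5 ± 13.2 CPM in wild type (log2 fold change -2.72 ± 0.17, edgeR adjusted p = 0.000418). MP1, another protease of the cascade, had a log2 fold change of -1.37 ± 0.11 (adjusted p = 0.000690). Both, and yellow-f, were called under all 10 alternatives. The second prophenoloxidase gene of crystal cells, proPO-A1, was scarce like PO45, with 4 and 3 counts in JIL-1 null and 17 and 12 in wild type. Like Hml, it entered the test only through its wild-type counts. It passed (log2 fold change -2.48 ± 0.67, adjusted p = 0.0362), but not without JIL-1 null library 1 (0.146), JIL-1 null library 2 (0.254), wild type library 1 (0.153) or wild type library 2 (0.0593). Without JIL-1 null library 1 the list had 4 falls and without JIL-1 null library 2 it had 3.

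Of 8 listed transcription factor genes of blood cell fate, 5 were in the table and 3 were tested, and these 3 fell, where 17.2% of all tested genes were called lower. The 2 not tested had more counts in JIL-1 null. Hand, a gene of a bHLH factor, had 14 and 7 counts in JIL-1 null and 2 and 4 in wild type, and kn, which encodes a factor of the lamellocyte lineage, had 5 and 3 in JIL-1 null and 0 and 2 in wild type. Beside srp, the genes that fell were zfh1, a zinc-finger homeobox gene, and ush, which encodes a partner of GATA factors. For zfh1 the level was 2.33 ± 0.194 CPM in JIL-1 null and 7.89 ± 0.102 CPM in wild type (log2 fold change -1.76 ± 0.23, edgeR adjusted p = 0.00354). The level of ush was 10.5 ± 0.461 CPM in JIL-1 null and 21.0 ± 2.09 CPM in wild type (adjusted p = 0.00714, or 0.0704 if JIL-1 null library 2 was left out). Of 11 tested genes of the matrix that haemocytes and fat body produce, 4 fell and 0 rose by edgeR, and all 4 were called in each of the 10 alternatives. At an unadjusted p under 0.05, 5 were lower and 2 higher, and DESeq2 called 4 lower and 0 higher. The share called is near the 30.7% of all tested genes. Those with the smallest adjusted p were BM-40-SPARC, at -1.84 ± 0.11, and Glt, at -1.31 ± 0.11 (adjusted p = 0.000356 and 0.000748). The collagen IV genes vkg and Cg25C, on which Peroxidasin acts, had log2 fold changes of 0.51 ± 0.17 and 0.41 ± 0.16 and did not pass the test, but both were called higher with upper quartile scaling (adjusted p = 0.0249 and 0.0327), vkg also with a replicate block (0.0275) and Cg25C also without wild type library 2 (0.0391). Of the other peroxidase genes tested, Irc fell by 0.47 on the log2 scale (adjusted p = 0.0480) and lost its call in 8 of 10 alternatives, among them the fits without JIL-1 null library 1 (0.139), JIL-1 null library 2 (0.262) and wild type library 2 (0.126).

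**Figure D4:**
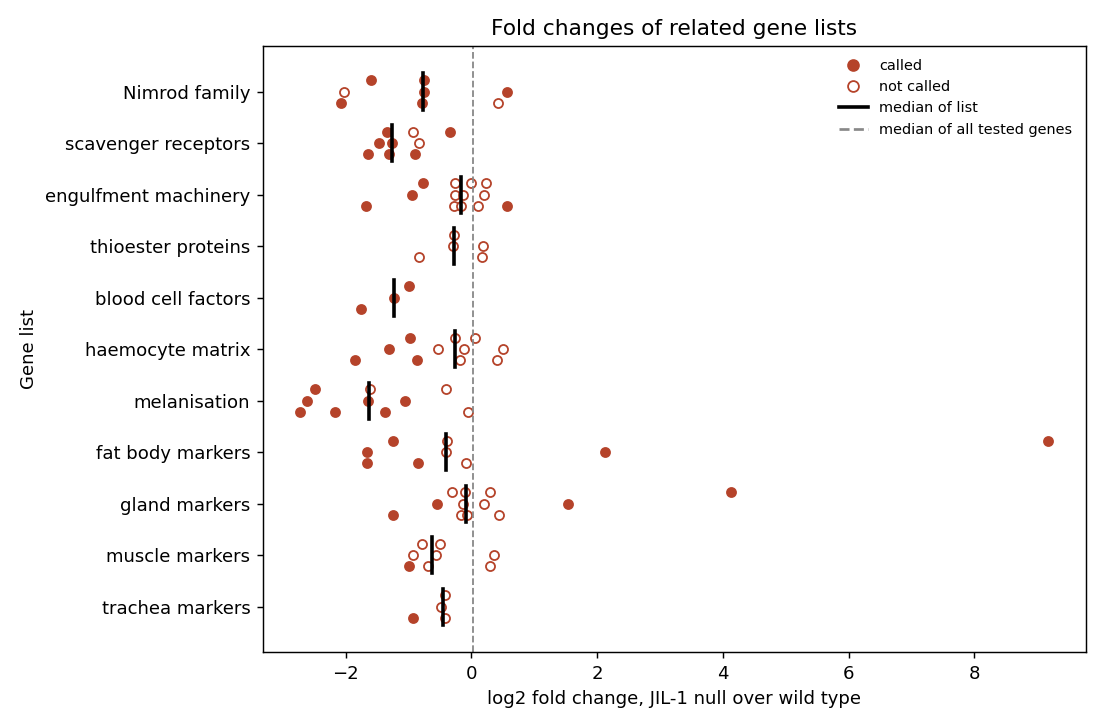
Log2 fold change of JIL-1 null over wild type (horizontal axis) of each tested gene in 11 gene lists, filled where the adjusted p is under 0.05. Short black lines are list medians and the dashed line is the median of all tested genes (0.03). The medians of the scavenger receptor and melanisation lists, -1.26 and -1.63, lie left of the dashed line, with engulfment genes, at -0.16, nearer to it.

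Markers of several cell types were set beside these values. The 7 plasmatocyte markers summed to 60.76 and 61.55 CPM in JIL-1 null and to 84.61 and 82.68 CPM in wild type, a sum carried by crq. Of the 3 tested, 2 fell (Hml and crq), where 17.2% of all tested genes were called lower. The median log2 fold change of the 3 was -0.535, and 0 of the calls held under every alternative. Hml entered the test only through its wild-type counts, and 1 fall remained when it was not counted. The 6 markers other than crq summed to 2.84 and 3.29 CPM in JIL-1 null and to 11.9 and 7.71 CPM in wild type. Among them nimC1 and eater were at 0 in one JIL-1 null library each. Of the 3 lamellocyte markers, atilla had 14.3 ± 2.73 CPM in JIL-1 null and 24.4 ± 2.47 CPM in wild type (log2 fold change -0.77 ± 0.19, edgeR adjusted p = 0.0269), a call lost without JIL-1 null library 1 (0.154), JIL-1 null library 2 (0.0667) or wild type library 2 (0.0659). Both other lamellocyte markers were too low to test. Of these, alphaPS4 had 8 and 11 counts in JIL-1 null and 5 and 23 in wild type. CG42640 (Dox-A3) had 2 and 4 counts in JIL-1 null and 2 and 0 in wild type. Of the 4 crystal cell markers, lz was not in the table, and PO45 and proPO-A1 were scarce. The fourth, peb, was abundant, at 40.7 ± 7.47 CPM in JIL-1 null and 88.7 ± 11.2 CPM in wild type (SD, n = 2 each). It fell by 1.13 on the log2 scale (edgeR adjusted p = 0.00476). Which cells the peb RNA came from was not tested.

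Fat body markers, of a tissue that also uses srp, summed to 39370 and 39610 CPM in JIL-1 null and to 58630 and 69510 CPM in wild type over 9 genes. Of these, 4 fell and 2 rose by edgeR, and DESeq2 called 6 lower and 1 higher. Fewer fell without JIL-1 null library 1 or without JIL-1 null library 2. Over all tested genes, the comparison for this list and the muscle and trachea lists, edgeR called 17.2% lower and 13.5% higher. Among those that fell were Fbp2 at -1.65 ± 0.14 and Lsd-1 at -1.65 ± 0.17. Those that rose were Lsp1gamma at 9.18 ± 0.21 and tobi at 2.12 ± 0.64. With 15 and 30 counts in JIL-1 null and 5 and 2 in wild type, tobi entered the test through JIL-1 null alone, so its rise is not independent of the filter. The call of tobi (edgeR adjusted p = 0.0497) was lost without JIL-1 null library 1 (0.179), JIL-1 null library 2 (0.341) or wild type library 2 (0.161). Muscle markers summed to 194 and 150 CPM in JIL-1 null and to 205 and 154 CPM in wild type. In every library sls was the largest part of this sum. The log2 fold changes of sls and bt were positive (0.35 ± 0.16 and 0.29 ± 0.15), and those of the other muscle markers were negative. The list median was -0.63, so the sums do not show how most of these genes changed. By edgeR 1 of 8 (Mlc2) fell, a call lost without JIL-1 null library 1 (log2 fold change -0.997) or library 2 (-1.01). Without wild type library 2, 4 muscle genes were called lower, namely Mlc2 (adjusted p = 0.00264), Act57B (0.00716), up (0.0168) and Mhc (0.0207). Trachea markers summed to 53.2 and 51.2 CPM in JIL-1 null and to 84.1 and 67.5 CPM in wild type, and 1 of 4 tested (serp) fell, which was lost without JIL-1 null library 2 (0.142) or wild type library 2 (0.0600). The part of other tissues in the levels of nimC2, srp, crq and the scarce genes was not tested.

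The genes whose profiles over the 4 libraries were most like that of nimC2, among 3458 genes with a symbol and a mean of at least 5 CPM, were Mkp3, Oscillin and Gs1. Their Euclidean distances in centred log2 CPM were 0.114, 0.187 and 0.220, and their log2 fold changes -2.18, -1.90 and -1.94. Closest to srp were Idgf2, Nmdmc and lt, at distances of 0.0440, 0.0750 and 0.0817, with log2 fold changes of -1.22, -1.26 and -1.17. With 4 libraries such a profile is little more than the difference between genotypes.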

How the data were processed

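Per the submitters' processing notes, the tool named is GSNAP, an aligner, with builds BDGP5 and dm3. The sources used here give no counter, annotation or use of strand. Raw counts per gene are as the authors deposited them. RPKM per genotype, the ratio (fold change) between genotypes, and the p-value and false discovery rate are the authors' deposited values, and only the RPKM are printed. Genes were tested with edgeR 4.0.16 (R 4.3.3; quasi-likelihood test, two-sided, TMM factors, filterByExpr with a count minimum of 10 in 2 libraries), which left 7958 genes, and called at a Benjamini-Hochberg adjusted p under 0.05. Alternatives used DESeq2 1.42.0, limma 3.58.1 (voom), upper quartile scaling, other filters, a replicate block and leaving out each library. Exon lengths and neighbours came from Ensembl release 115 (BDGP6.54), another build, so no coordinates are printed. Levels per kilobase and the counts of overlap under other scalings were added after seeing the data. Of 9931 identifiers 9523 matched. On simulated data for this comparison with 7958 genes, the test recovered 66% of those set to a 2-fold change and 98% of those set to a 4-fold one. It also called 12 unchanged genes. The simulation changed 200 genes and gave all genes the same variability between libraries, so these rates need not hold for the data. The members and the 16 gene lists were chosen with earlier results of these data known, and the cluster genes after their values were seen. Named list genes are up to 2 higher and 2 lower called genes by smallest adjusted p. Further ones were chosen after their values were seen.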

Additional observations from a re-analysis of the deposited data

How the results depend on the processing

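The falls of nimC2 and srp kept their direction and their call in all 10 alternatives, with log2 fold changes from -2.26 to -1.87 and from -1.35 to -1.09, and Pxn and PO45 were called in none of those that tested them. The log2 fold change of crq was -0.37 with DESeq2, -0.21 with upper quartile scaling, -0.32 without a filter and -0.35 with a replicate block, none past the threshold, and from -0.38 to -0.32 without single libraries. That of Hml ran from -3.50 to -2.49 without single libraries. PO45 ranged from -2.84 to -0.63 and Pxn from -0.72 to -0.35. The number of the 10 genes called lower lay between 2 and 3 without single libraries, and 0 rose in any alternative. At a mean of at least 5 CPM, Hml, Pxn and PO45 were not tested. Over all genes, 1077 rose and 1369 fell. DESeq2 gave 587 higher, and upper quartile scaling, under which the median over all genes was 0.17 in place of 0.03 (log2), gave 1690 higher and 1154 lower, so that 59.4% of calls were higher. Without single libraries between 195 and 1186 rose and between 524 and 1612 fell. In the Nimrod family DESeq2 called 3 lower, and without single libraries 2 to 5 fell and 0 to 1 rose. Engulfment genes gave 1 to 4 falls and 0 to 1 rises without single libraries, melanisation genes 3 to 6 falls, and scavenger receptor genes 5 to 8. The fit with a replicate block gave 961 higher and 1300 lower, and the deviations of same-numbered libraries correlated at -0.066, so the numbers were not taken to pair the libraries. Fewer libraries leave fewer degrees of freedom, and the cause of other changes was not tested. With 2 libraries a genotype and at most 35 counts for each of the 7 scarce genes in a library, depth limits what can be said of them.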
